A study of Mus musculus with 9 samples.

Results

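The interferon-induced gene families described here are 69 mouse genes named for induction by interferon or for regulating it: the IFIT, IFITM and other Ifi genes, the OAS, GBP, IRGM and MX families, the interferon regulatory factors (IRFs), Isg15, Isg20, Isg20l2, Rsad2 and Usp18. They were chosen by a rule on gene symbols that used no expression value, though earlier results of these data were known. The epidermal table held 63 of them among 36442 genes, and the regulatory T cell (Treg) table held 67 among 24016 gene symbols, with 61 in both. Some names need care. The epidermal Gbp5 carries an identifier that now belongs to Gbp2b, so it was matched to Gbp2b in Tregs and not to Gbp5. The epidermal Gbp6 carries one that now belongs to an unnamed gene model, and the epidermal Gbp1 one that the current annotation does not list. Neither Gbp6 nor Gbp1 of the epidermal table was matched to a Treg gene. Ifi27l1 of the epidermal table is Ifi27 of the Treg table.

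RNA was sequenced from sorted mouse cells. The epidermal samples were keratinocytes taken directly from adult skin epidermis, in 2 libraries labelled WT and 2 labelled Mi2. The Tregs were taken directly from skin-draining lymph nodes, in 2 libraries labelled Ctl, 2 labelled TSLPR WT Treg Mi2 and 1 labelled TSLPR– Treg_Mi2, written here as TSLPR-negative. TSLP is a cytokine of keratinocytes, and Crlf2 encodes its receptor chain TSLPR. Chd4 encodes Mi-2β, an ATPase that remodels chromatin. In the tables' headers the Mi2 libraries are called KO and the Tregs skin Tregs. The labels do not name the promoter or cell type that drives the Mi2 alteration, the ages, any allele that the WT and Ctl mice carry, or how the TSLPR-negative cells were obtained. They also do not say whether libraries of a group came from separate mice, so the p-values measure only the spread between these libraries.

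Depth was 5682391 to 8913804 reads per epidermal library and 21849381 to 32238992 per Treg library. Values below are normalized reads, which can be compared between the libraries of 1 table but not between the tables, since these were normalized separately. Treg values are always given in the order Ctl (replicates 1 and 2), then TSLPR WT Mi2 (1 and 2), then TSLPR-negative, and epidermal values in the order WT, then Mi2. A sign ± stands for the standard error of a fitted log2 change. Chd4 had 1607 and 1942, then 734 and 1207 in epidermis. Crlf2 had 395 and 742, then 816 and 715, then 51.5 in Tregs, lowest in the library labelled TSLPR-negative. Foxp3, the Treg-defining factor, was at 11159 to 15371 in all 5 Treg libraries, and 5 of 7 keratinocyte markers were at 0 there. Krt5 and Krt14, the basal keratins, were at 32291 or more in every epidermal library. Other keratinocyte markers differed between the groups. Krt15 was at 49093 and 40508, then 4202 and 8781, and Krt1 at 21522 and 18749, then 4503 and 8896. Krt10 was at 28432 and 28167, then 4945 and 17707, while Trp63 and Dsg3 were higher in both Mi2 libraries. In bulk samples like these, fewer cells of a type and less RNA per cell cannot be told apart.

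Interferons are cytokines that warn cells of infection. Type I interferons signal through the receptor chains IFNAR1 and IFNAR2 and the kinases JAK1 and TYK2 to STAT2, which joins IRF9 to bind interferon-stimulated response elements. Interferon-gamma, made mainly by T cells and NK cells, signals through IFNGR1 and IFNGR2, and its target genes carry gamma-activated sites. Among the products, IFIT proteins bind foreign RNA, OAS enzymes make the messenger that activates RNase L, MX, GBP and IRGM proteins are GTPases that act on viruses or on vacuoles of pathogens, IFITM proteins hinder viral entry at membranes, ISG15 is a ubiquitin-like modifier, and USP18 removes ISG15 and dampens signalling at IFNAR2. The IRFs are transcription factors, of which some drive interferon genes and others steer cell differentiation.

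In the TSLPR WT Tregs labelled Mi2, most of the antiviral members were lower than in Ctl Tregs. Of 67 members, 52 had a mean of at least 10 normalized reads and were tested, 6 were at 0 in all 5 libraries, and the other 9 reached at most 16.04 in any library. By limma with Benjamini-Hochberg adjustment over all 12206 genes tested, 32 of the 52 fell (61.5%), where 13.0% of all genes fell, and 3 rose, where 14.7% of all genes rose. The median log2 change was -1.21 over the tested members and -0.01 over all genes. Every tested IFIT, MX and IRGM gene fell, as did 8 of 11 GBPs, 5 of 7 OAS genes and 3 of 9 IRFs; the 3 that rose were Irf4, Ifi30 and Ifitm2. With no filter on low values, limma called no gene of the table, while 42 of 61 members and 5043 of 16831 genes had an unadjusted p under 0.05, and edgeR called 37 lower and 3 higher, so of the fits run, limma with the filter and the count models made these calls. Without the intensity trend, limma called 3 higher and 26 lower, and the calls of Gbp5, Ifit2, Irf2bp2, Irf3, Mx1 and Rsad2 ended (adjusted p from 0.0507 to 0.118). Ifi44 and Gbp11, among those that fell, had a mean under 10 in the TSLPR WT Mi2 group and passed the filter through other libraries, so their calls support nothing.

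**Figure D1:**
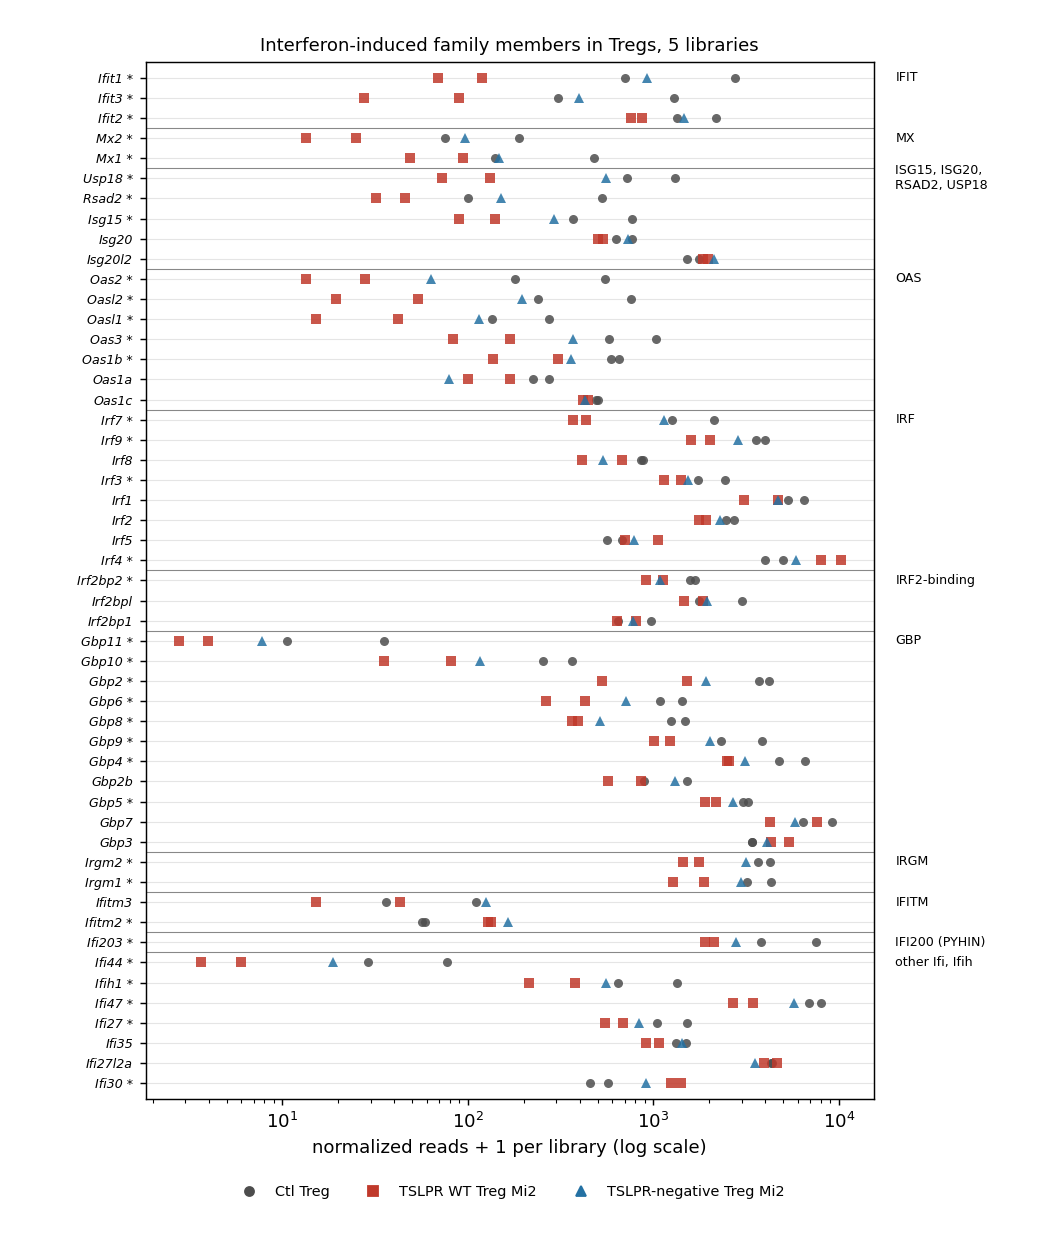
Normalized reads plus 1 (log axis) of 51 of the 52 tested members in each of the 5 Treg libraries, with 1 row per gene, grouped by family; circles are Ctl, squares TSLPR WT Mi2 and the triangle TSLPR-negative Mi2, and an asterisk marks a call between TSLPR WT Mi2 and Ctl. In the IFIT, MX and most OAS rows both squares lie left of both circles, and the triangle lies to the right of both squares; in the Irf4 and Ifi30 rows the order is the opposite.

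The upstream genes were looked at through lists of interferon ligands, receptors with their kinases and STATs, and nucleic acid sensors. Of 19 interferon ligand genes in the Treg table, 16 were at 0 in every library, and 1 was tested. Ifng, which encodes interferon-gamma, had 17.8 and 44.1, then 0.88 and 5.97, then 5.91, and it was called lower in TSLPR WT Mi2 Tregs (log2 change -3.01 ± 0.769, adjusted p = 0.00953). Both TSLPR WT Mi2 values were under 10 and Ifng passed the filter through other libraries, so its call supports nothing. Of 12 receptor, kinase and STAT genes tested, 8 fell and none rose, including Stat2 from 3154 and 2432 to 1268 and 1055 (log2 change -1.26 ± 0.217). Ifnar1, Ifnar2, Ifngr2, Il10rb, Jak1 and Stat4 fell too. The list's median log2 change was -0.86, and over all genes tested 13.0% fell and 14.7% rose. Of 18 sensors and adaptors, 10 fell, among them the endosomal RNA receptor Tlr7 (from 1792 and 961 to 165 and 270, log2 change -2.63 ± 0.314) and the cytoplasmic RNA helicase Ddx58, or RIG-I (from 3046 and 2083 to 696 and 1041, log2 change -1.56 ± 0.251). Mb21d1, which encodes the DNA sensor cGAS, rose from 276 and 175 to 487 and 399 (adjusted p = 0.0183).

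Among the IRFs, the member with the largest fall was Irf7, the factor that amplifies interferon-alpha production. It had 2116 and 1259, then 369 and 434, then 1138 (second group against first: log2 change -2.03 ± 0.259, adjusted p = 5.88e-05). Irf9, the DNA-binding partner of STAT2, was at 3991 and 3562, then 1601 and 2028, then 2868 (log2 change -1.06 ± 0.209). Irf3, which responds to the sensors, was at 1748 and 2424 against 1414 and 1134 (log2 change -0.70 ± 0.227, adjusted p = 0.0329), but its call ended without Ctl replicate 2 (log2 change -0.46, adjusted p = 0.201) and without TSLPR WT Mi2 replicate 2 (-0.54, 0.232). In each of these 3 genes both TSLPR WT Mi2 libraries lay below both Ctl libraries, which with 2 libraries a side supports nothing by itself.

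Irf4, needed for effector Treg differentiation, went the other way. Of the IRFs it had the highest mean over all 5 libraries by reads, though Irf1 was higher in both Ctl libraries (5350 and 6475). Irf4 had 5001 and 3989, then 10210 and 8036, then 5856, and rose in the TSLPR WT Mi2 group (log2 change 1.02 ± 0.217, adjusted p = 0.00292). Irf1, Irf2, Irf5 and Irf8 did not pass the test, with log2 changes of -0.63, -0.49, 0.48 and -0.71. Of the 3 genes for IRF2-binding proteins, which are corepressors, Irf2bp2 fell by 0.69 on the log2 scale, a call that ended without Ctl replicate 1 (adjusted p = 0.0802) and without TSLPR WT Mi2 replicate 1 (0.218). The most abundant of them, Irf2bpl, was at 1758 and 2989 in Ctl and 1841 and 1458 in TSLPR WT Mi2 Tregs, so the groups overlapped.

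The antiviral effectors gave the largest changes. Ifit1 had 2748 and 702, then 67.9 and 117, then 919 (second group against first: log2 change -3.94 ± 0.461, adjusted p = 3.03e-05). Ifit3 followed the same order, with 1287 and 305, then 26.5 and 88.6, then 394 (log2 change -3.66 ± 0.572). Ifit2, with the highest mean of the 3 IFIT genes over all 5 libraries though below Ifit1 in Ctl replicate 1, changed least, from 2169 and 1342 to 759 and 867 (log2 change -1.07 ± 0.245). In each of these rows Ctl replicate 1 was the highest library and both TSLPR WT Mi2 libraries were the lowest.

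Usp18, the brake on IFNAR2 signalling, had the smallest p of all members. It was at 1304 and 724, then 71.4 and 131, then 554 (second group against first: log2 change -3.31 ± 0.338, adjusted p = 1.18e-05). Isg15 was at 767 and 366, then 88.2 and 139, then 290 (log2 change -2.25 ± 0.356). Rsad2, which encodes viperin, was at 530 and 98.7, then 45.0 and 30.9, then 149 (log2 change -2.59 ± 0.566, adjusted p = 0.00363). The most abundant gene of this group by reads, Isg20l2, a nuclease of ribosomal RNA, was at 1766 and 1515 in Ctl and 1855 and 1979 in TSLPR WT Mi2 Tregs, with a log2 change of 0.23 that did not pass the test (adjusted p = 0.441).

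Among the OAS genes, Oas2 changed most of all members. It had 544 and 178, then 12.4 and 26.9, then 62.5 (second group against first: log2 change -4.02 ± 0.508, adjusted p = 5.39e-05). Oasl2 and Oasl1, the OAS-like genes, had log2 changes of -3.71 and -2.94, Oas3 of -2.70 and Oas1b of -1.60, all called. Oas1c, with the highest mean of the family over all 5 libraries though not in Ctl (Oas3 was at 1028 and 576 there, Oas1b at 656 and 588), had 488 and 501, then 416 and 446, then 429 and did not pass the test (log2 change -0.20 ± 0.239, adjusted p = 0.580). Oas1a missed the threshold (log2 change -0.93, adjusted p = 0.0530), and Oas1d, Oas1e, Oas1f, Oas1g and Oas1h had at most 2.53 normalized reads each in any library. The Oas1 genes lie side by side and are close copies, so reads may be shared or split among them. Of the MX GTPases, Mx2 fell by 2.71 on the log2 scale and Mx1, with 480 and 139 in Ctl and 47.6 and 93.6 in TSLPR WT Mi2 Tregs, by 1.94.

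The sizes of these changes rested in part on Ctl replicate 1, which was above Ctl replicate 2 for all the IFIT, MX and OAS-like genes. Without Ctl replicate 1, the log2 change was -2.96 for Ifit1, -2.62 for Ifit3, -3.21 for Oas2, -2.88 for Oasl2 and -2.05 for Mx2, and each stayed called. The calls of Rsad2 (log2 change -1.38, adjusted p = 0.0596) and Mx1 (-1.04, 0.141) ended. Without Ctl replicate 2, the values were -4.93, -4.70, -4.82, -4.55, -3.38, -3.79 and -2.83, in the same order of genes. Without TSLPR WT Mi2 replicate 1, the lower of that pair for most of these genes, Ifit3, Oasl2 and Oasl1 were at -2.81, -2.98 and -2.20, and without replicate 2 they were at -4.51, -4.45 and -3.67. With any 1 of these 4 libraries left out, 30 to 33 members were called lower.

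Promoters were read from RefSeq sequences of build GRCm38.p6, to show whether the letters of an interferon-stimulated response element (GAAA, any 2 bases, then GAAA, on either strand) or of a gamma-activated site (TTCNNNGAA, which reads alike on both strands) stand in the 250 bases before the gene's start. Of 69 members, 49 matched an entry. The response element letters stood before 19 of these 49 (38.8%), beside 3.46% of all 27025 genes with an entry, and the gamma-activated site letters before 12 (24.5%), beside 8.13%. The first motif stood before 10 of the 20 matched members that fell in TSLPR WT Mi2 Tregs and before 7 of the 18 matched members that were tested and did not fall, so it was not confined to those that fell. The gamma-activated site letters stood before 3 of these 20 and 7 of these 18. The lines below give 120 bases of 6 promoters, 5′ to 3′ on the gene's strand, with the response element letters in capitals; they belong to the 6 members with an entry that were called in the most comparisons and, among those, with the smallest p. Ifit1 (chr19:34640709-34640828, plus strand) has 2 matches, which begin 104 and 85 bases before the start; Oas3 (chr5:120777710-120777829, minus strand) has 1, at 75 bases; Isg15 (chr4:156200860-156200979, minus strand) has 3 that overlap, at 78, 72 and 66 bases; and Gbp2 (chr3:142620509-142620628, plus strand) has 1, at 59 bases. Irf7 (chr7:141266425-141266544, minus strand) and Oasl1 (chr5:114923120-114923239, plus strand) have none in their windows, which says only that these letters are not there.
Ifit1: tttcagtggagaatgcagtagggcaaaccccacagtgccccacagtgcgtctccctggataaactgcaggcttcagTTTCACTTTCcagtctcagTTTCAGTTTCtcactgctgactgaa
Oas3: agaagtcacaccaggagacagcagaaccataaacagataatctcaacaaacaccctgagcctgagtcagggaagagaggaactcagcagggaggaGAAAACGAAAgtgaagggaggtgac
Isg15: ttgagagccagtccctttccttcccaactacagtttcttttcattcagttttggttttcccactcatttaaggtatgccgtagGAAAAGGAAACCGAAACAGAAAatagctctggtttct
Gbp2: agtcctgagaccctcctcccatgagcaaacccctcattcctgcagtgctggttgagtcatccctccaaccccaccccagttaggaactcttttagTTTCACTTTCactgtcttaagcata
Irf7: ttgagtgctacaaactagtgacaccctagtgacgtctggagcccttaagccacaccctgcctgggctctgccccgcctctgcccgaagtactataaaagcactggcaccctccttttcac
Oasl1: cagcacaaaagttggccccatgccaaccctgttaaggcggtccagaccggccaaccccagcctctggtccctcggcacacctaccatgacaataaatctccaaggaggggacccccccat

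The GBPs, large GTPases that interferon-gamma induces strongly, are given here by their place in the genome. On build mm9, 6 of them lie together on chromosome 5 (105443172 to 105775491) and 5 on chromosome 3 (142159898 to 142300972). All 6 of the chromosome 5 group fell in TSLPR WT Mi2 Tregs (Gbp4, Gbp6, Gbp8, Gbp9, Gbp10 and Gbp11; median log2 change -1.87, range -2.55 to -1.15), against 2 of 5 on chromosome 3 (median -0.63, range -2.14 to 0.51). The difference between the groups was not tested. Gbp8 had 1486 and 1239, then 391 and 364, then 516 (second group against first: log2 change -1.84 ± 0.229, adjusted p = 4.61e-05). Gbp6 was at 1433 and 1082, then 262 and 426, then 712, and Gbp10 at 364 and 253, then 34.4 and 79.6, then 115. These genes are close copies, so reads may be shared among them.

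On chromosome 3, Gbp2 had the largest change. It was at 4176 and 3715, then 527 and 1511, then 1931 (second group against first: log2 change -2.14 ± 0.346, adjusted p = 3.98e-04). The value was -1.38 without TSLPR WT Mi2 replicate 1 and -2.90 without replicate 2, while that of Gbp10 was -1.92 and -3.11. Gbp5 fell by 0.63, a call that ended without Ctl replicate 1 (adjusted p = 0.0850) or either TSLPR WT Mi2 library (0.0709 and 0.241). Gbp7, the most abundant GBP by reads, overlapped between the groups (9169 and 6377 against 7672 and 4266), and Gbp3, next to it, had 3395 and 3389 against 5402 and 4293, with a log2 change of 0.51 that did not pass the test (adjusted p = 0.0809).

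The smaller interferon-gamma-responsive GTPases fell. Irgm1, which guards against vacuolar pathogens, was at 4326 and 3198, then 1269 and 1877, then 2982 (second group against first: log2 change -1.27 ± 0.237). Irgm2 was at 4273 and 3680, then 1764 and 1452, then 3168 (log2 change -1.31 ± 0.207). Ifi47, another GTPase of this kind, was at 8052 and 6936, then 2691 and 3440, then 5732 (log2 change -1.30 ± 0.211). Of 16 other interferon-gamma response genes tested, 8 fell and none rose (median log2 change -0.93), among them the GTPase gene Tgtp2, from 1176 and 951 to 67.0 and 295, and Nlrc5, the activator of MHC class I genes, from 9788 and 11026 to 2826 and 4284. Of 34 other type I interferon response genes, 23 fell and none rose (median -0.94), led by Slfn1, from 6951 and 4649 to 677 and 1063 (log2 change -2.74 ± 0.255, adjusted p = 8.67e-06). Of 10 negative regulators of the pathway, 4 fell, Socs1 and Trim30a among them (log2 changes of -1.62 and -1.22), and Nlrx1 rose by 1.18. Beside these 3 lists, 13.0% of all genes tested fell and 14.7% rose.

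The remaining families were mixed. Ifi203, a PYHIN protein that senses DNA, was at 7527 and 3816, then 2127 and 1895, then 2781 (second group against first: log2 change -1.42 ± 0.269). Ifih1, or MDA5, a sensor of long double-stranded RNA, fell by 1.71 on the log2 scale. Ifi44 fell from 75.7 and 28.1 to 2.65 and 4.98, with a log2 change of -3.34, which was -2.64 without Ctl replicate 1 and -4.04 without Ctl replicate 2. Per kilobase of transcript, Ifi27l2a had the highest mean of all members in Ctl Tregs (9490 normalized reads per kilobase), and it did not pass the test, with 4383 and 4310, then 3934 and 4618, then 3518. Its neighbour Ifi27 fell by 1.04, a call that ended without Ctl replicate 2 (adjusted p = 0.0570). Gbp11, a low GBP, fell from 34.3 and 9.62 to 1.76 and 2.99, with a log2 change of -2.55 that was -3.41 without Ctl replicate 2, and it was too low to be tested without Ctl replicate 1.

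The other members that rose, Ifi30 and Ifitm2, were below Irf4 in level. Ifi30, or GILT, the lysosomal thiol reductase of antigen processing, was at 568 and 457, then 1252 and 1413, then 907 (second group against first: log2 change 1.38 ± 0.225, adjusted p = 4.24e-04). Ifitm2 was at 58.0 and 55.3, then 127 and 132, then 163 (log2 change 1.18 ± 0.337, adjusted p = 0.0174), and its call ended without either Ctl library (0.0531 and 0.0669) or TSLPR WT Mi2 replicate 2 (0.0618). Ifitm3, from the same cluster, overlapped between the groups and was not called, with 110 and 35.3, then 14.1 and 41.8, then 125.

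Some markers of other cells were also lower in the TSLPR WT Mi2 Tregs. The summed level of 8 B cell markers, of which none was at 0, was 6419 and 3241, then 1165 and 1451, then 1244, and Ms4a1, or CD20, was at 1172 and 317, then 75.9 and 103, then 84.4. The sum of 7 plasmacytoid dendritic cell markers was 2480 and 1987, then 745 and 1198, then 1273. Bst2, one of them, is itself induced by interferon, and Siglech was at 24.9 and 30.5, then 4.41 and 23.9, then 16.9. Tcf4 of this list overlapped between Ctl and TSLPR WT Mi2, with 235 and 141, then 191 and 189, then 115. For 8 markers of CD8 T cells and NK cells the sums were 1917 and 2155, then 840 and 1178, then 1808, and for 9 markers of Langerhans and dendritic cells 12252 and 8020, then 5315 and 6216, then 4229. Most of the last sum was Cd74 (8763 and 5943, then 3562 and 4220, then 2614) and H2-Aa, which B cells carry too, while Epcam was at 196 to 219 in all 5 libraries and Mfge8 went the other way, with 249 and 326, then 1071 and 781, then 723. The sum of 8 neutrophil and macrophage markers was 698 and 367, then 776 and 944, then 578. Most of the TSLPR WT Mi2 sums was Itgam, with 218 and 79.4, then 653 and 546.5, then 268. Lyz2 (200 and 123, then 45.0 and 183, then 133) and Mpeg1 (247 and 143, then 57.3 and 160, then 130) overlapped between Ctl and TSLPR WT Mi2. Among 5 endothelial markers, Pecam1, which leukocytes also carry, was at 4421 and 4171, then 2128 and 2877, then 4182, and Cdh5 went the other way, with 8.28 and 4.81, then 17.6 and 20.9, then 8.44. In the TSLPR-negative library the B cell sum was near that of the TSLPR WT Mi2 libraries, and the CD8 T and NK cell sum was nearer to Ctl. Usp18 there was at 554, above the 71.4 and 131 of TSLPR WT Mi2 and below the 1304 and 724 of Ctl. The part of all these cells in the fall of the interferon-induced genes was not tested.

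The TSLPR-negative library was then set against the TSLPR WT Mi2 libraries; both are labelled Mi2. It is 1 library, assumed to vary like the other groups. Of 52 members tested, 3 were called higher (5.77%, where 0.737% of all genes were higher) and none lower (0.205% of all genes). Usp18 was higher (log2 change 2.50 ± 0.414, adjusted p = 0.0139), as were Ifit1 (3.35 ± 0.564, 0.0149) and Irf7 (1.51 ± 0.317, 0.0397). The median log2 change was 0.83 over the tested members and 0.03 over all genes. At an unadjusted p under 0.05 were 26 members and 1454 of 12206 genes; 25 of these members were higher and 1, Irf4, was lower (log2 change -0.63, adjusted p = 0.351). edgeR called the same 3 genes, and DESeq2 called Usp18, Irf7 and Irgm2 but not Ifit1, with none lower by either. Ifit3, Oasl2 and Mx2 just missed the threshold, with log2 changes of 2.99, 2.59 and 2.40 and adjusted p of 0.0623, 0.0740 and 0.0809.

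By family, the median log2 change of the TSLPR-negative library against TSLPR WT Mi2 was 2.99 for the IFIT genes, 1.76 for MX, 1.64 for OAS, 0.97 for IRGM, 0.86 for GBP and 0.29 for the IRFs. The summed level of the 3 IFIT genes was 6204 and 2348, then 853 and 1073, then 2770, so the TSLPR-negative library lay within the Ctl range. For the 2 IRGM genes it was 8599 and 6877, then 3033 and 3330, then 6151, nearer to Ctl. For the 12 OAS genes it was 4025 and 2438, then 1018 and 971, then 1611, and for the 11 GBPs 34584 and 27692, then 21093 and 16923, then 22266, both nearer to TSLPR WT Mi2. Among the other lists, the only gene called was Slfn1, which was higher in the TSLPR-negative library, at 3843 (log2 change 2.18 ± 0.312, adjusted p = 0.00597). The calls of Usp18, Ifit1 and Irf7 ended without the intensity trend (adjusted p = 0.213, 0.233 and 0.256) or with no filter on low values (0.452 each), and that of Ifit1 with DESeq2 (0.137). With 1 library of another group left out, 8 to 18 members were called higher, the most without TSLPR WT Mi2 replicate 2.

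**Figure D2:**
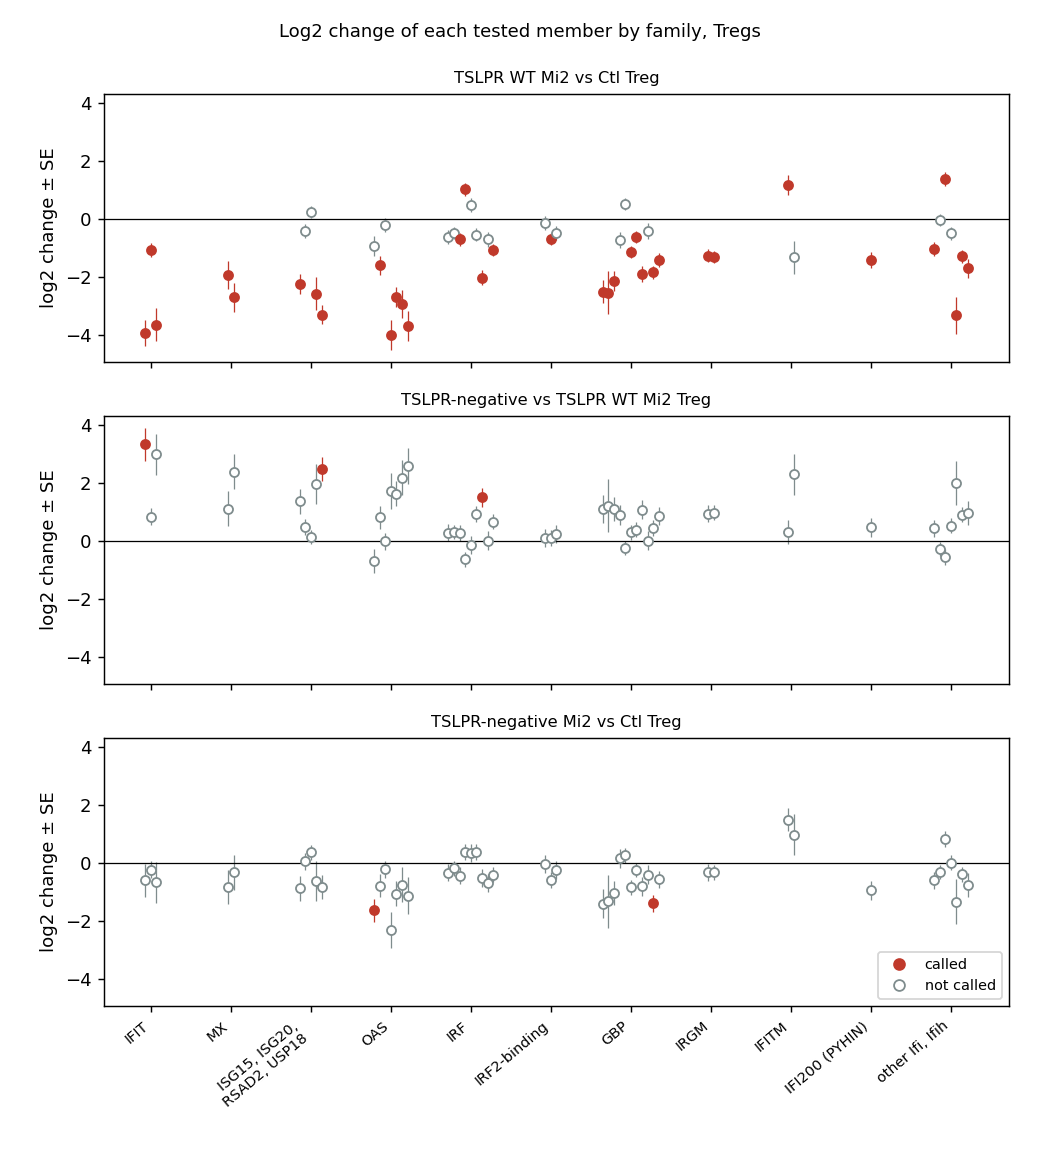
Log2 change with its standard error for each tested member, by family, in the 3 Treg comparisons; filled points passed the test and open points did not, and the comparisons share libraries. In the top panel 32 members are filled below 0 and 3 above, in the middle panel 3 above and none below, and in the bottom panel 2 below.

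Against Ctl, the TSLPR-negative library had 2 of 52 members lower (3.85%, where 0.516% of all genes were lower) and none higher (2.63% of all genes). Gbp8 was lower (log2 change -1.39 ± 0.280, adjusted p = 0.0131), as was Oas1a, with 273 and 222 in Ctl and 78.5 in the TSLPR-negative library (-1.64 ± 0.415, 0.0455). Oas1a was thus lower in that library than in either TSLPR WT Mi2 library, at 168 and 98.5. The median log2 change was -0.47 over the tested members and 0.04 over all genes. At an unadjusted p under 0.05 were 13 members and 1624 of 12206 genes; 11 of these members were lower and 2, Ifitm2 and Ifi30, higher. edgeR called Gbp8 and Oas2 lower, DESeq2 called Gbp4, Gbp8, Oas1a and Oas2 lower, and neither called a member higher. The call of Oas1a ended without Ctl replicate 1 (adjusted p = 0.153), without Ctl replicate 2 (0.0660), with edgeR (0.0557) and with transcripts summed (0.0613), and both calls ended without the intensity trend and with no filter. Of the other lists, Cd74 and Ciita, genes of MHC class II, were lower (log2 changes of -1.46 and -1.95). This comparison shares its Ctl libraries with the first one and its TSLPR-negative library with the second.

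In epidermis, the same families did not move as 1 block. Ifitm1, Ifitm2 and Ifitm3 and a few low antiviral genes were higher in Mi2 keratinocytes, while Irf4, Irf3, Usp18, Oas1f and the gene listed as Gbp1 were lower. Of 63 members, 37 were tested, 4 were at 0 in all 4 libraries and the other 22 reached at most 19.8 in any library. Of the 37, 12 rose (32.4%, where 15.1% of all genes rose) and 5 fell (13.5%, where 13.1% of all genes fell), by limma with adjustment over 14461 genes. Of these calls, 4 higher (Ifit1, Isg15, Oas3 and Oasl1) and 1 lower (Gbp1) are of genes with a mean under 10 in one group, which passed the filter only through the other group and so had to differ; their calls support nothing. Without the intensity trend, limma called 8 higher and 4 lower. The median log2 change was 0.02 over the tested members and -0.03 over all genes. The direction depends on the scaling. With libraries rescaled to totals without mitochondrial genes, the median of all genes shifted by -0.24, the members split into 6 higher and 8 lower, and 35.8% of all calls were higher in place of 53.5%. Without the 50 most abundant genes the shift was -0.13, the members split into 10 and 6, and the share was 45.3%. No called member changed direction under either scaling, but the calls of Irf1 and Gbp2 ended under both, those of Irf5 and Isg20l2 ended without mitochondrial genes, and Oas3 and Ifit1 then fell below the filter. The mitochondrial share of reads was 13.8% and 12.9%, then 29.7% and 15.5%; its part in the result was not tested.

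**Figure D3:**
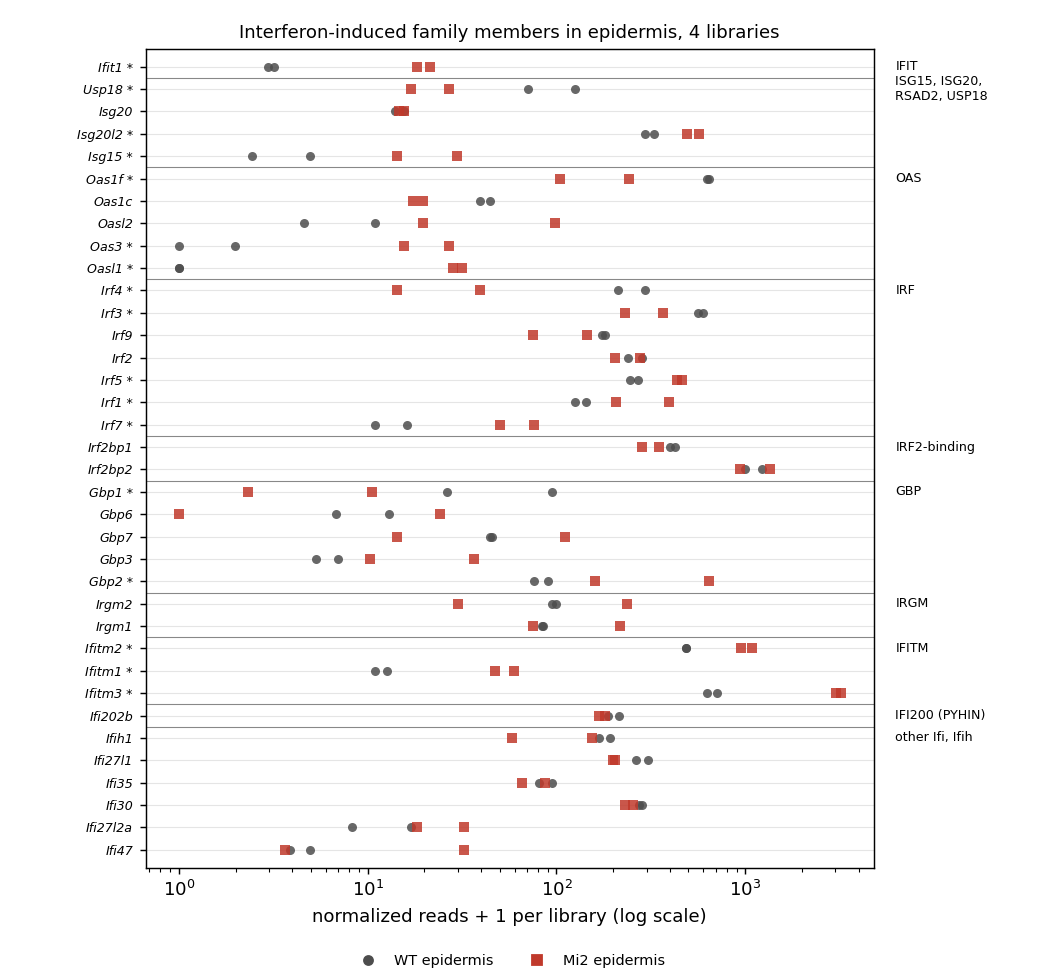
Normalized reads plus 1 (log axis) of 36 of the 37 tested members in each of the 4 epidermal libraries, with 1 row per gene, grouped by family; circles are WT and squares Mi2, and an asterisk marks a call. Ifitm3 has its Mi2 libraries at 3190 and 3026 and its WT libraries at 626 and 709, and in the Irgm1, Irgm2, Gbp7 and Ifi47 rows the 2 Mi2 libraries lie on both sides of WT.

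Interferon ligands gave next to no reads in epidermis: 17 of 19 were at 0 in all 4 libraries and none was tested. Of 12 receptor, kinase and STAT genes, 2 rose (Ifnar2 from 43.7 and 56.6 to 137 and 131, Stat3 from 970 and 1191 to 2155 and 2204) and 2 fell (Il28ra, the interferon-lambda receptor, by 1.65, and Tyk2 by 1.59 on the log2 scale). Over all genes tested, 15.1% rose and 13.1% fell, close to the shares in this list. Of 14 sensors and adaptors, 4 rose, including Aim2, a DNA sensor, from 5.95 and 3.63 to 134 and 136, and Ddx58 from 64.5 and 92.9 to 180 and 315, and Mavs fell by 0.77. Aim2 was under 10 in both WT libraries and passed the filter only through Mi2, so its call supports nothing. None of 8 negative regulators passed the test. Of 26 other type I interferon response genes tested, 3 rose and 1 fell, with a median log2 change of -0.27. The shares of all genes given above, 15.1% and 13.1%, stand beside this list too.

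The epidermal IRFs diverged. Irf4 was at 210 and 295, then 13.3 and 38.1 (log2 change -3.40 ± 0.486, adjusted p = 0.00459), the largest fall among the members, and the value was -2.68 without Mi2 replicate 1 and -4.13 without Mi2 replicate 2. Irf3 was at 563 and 595 against 230 and 365 (log2 change -0.997 ± 0.257, adjusted p = 0.0289). Irf7 rose from 9.92 and 15.2 to 49.1 and 74.9 (log2 change 2.21 ± 0.431, adjusted p = 0.0121). Irf5 rose by 0.81 and Irf1 by 1.08 on the log2 scale.

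The IFITM genes, which encode small membrane proteins, all rose where they were high enough to test. Ifitm3 went from 626 and 709 to 3190 and 3026 (log2 change 2.22 ± 0.189, adjusted p = 8.94e-04), Ifitm2 from 485 and 483 to 1077 and 949 (log2 change 1.06 ± 0.186) and Ifitm1 from 9.92 and 11.6 to 58.4 and 46.3 (log2 change 2.17 ± 0.404). Ifitm6, which was not tested, went the other way, with 19.8 and 5.81 in WT and no read in Mi2, so it was at least 3.18-fold lower against a floor of 3 reads in each Mi2 library. Ifitm1, Ifitm2 and Ifitm3 are close copies, so reads may be shared among them.

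Some low antiviral members were higher too, though few genes of the list of other type I interferon response genes rose. Oasl1 had no read in either WT library and 30.5 and 27.2 normalized reads in Mi2, at least 11.2-fold higher against a floor of 3 reads in each WT library. Oas3 had 1 read in WT and 30 in Mi2, a ratio of 48.1 with a 95% exact counting interval of 7.996 to 1962. Ifit1 went from 1.98 and 2.18 to 17.2 and 20.4 (log2 change 2.68 ± 0.619) and Isg15 from 3.97 and 1.45 to 13.3 and 28.6 (log2 change 2.56 ± 0.711). These 4 passed the filter through the Mi2 libraries alone, so their values are a description. Mx1 was below the filter, with no read in WT and 17.2 and 9.54 in Mi2, at least 5.20-fold higher. Oas2, Ifit2, Ifit3 and Rsad2, which were prominent in Tregs, had at most 5.45 normalized reads in any epidermal library. Counting intervals and floors cover counting error only, since the labels name no molecular identifiers.

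Usp18 and Oas1f ran against these. Usp18 was at 69.5 and 125, then 15.9 and 25.9 (log2 change -2.14 ± 0.426, adjusted p = 0.0128). Oas1f, which had no read in Tregs, was the most abundant OAS gene of the epidermis, at 622 and 640, then 103 and 240 (log2 change -1.99 ± 0.373, adjusted p = 0.0105), with -1.39 without Mi2 replicate 1 and -2.60 without replicate 2. Isg20l2 rose by 0.76 on the log2 scale. Of the other highest genes of their families, Ifi202b (212 and 187 against 167 and 180), Irf2bp2 (997 and 1217 against 1347 and 932) and Ifi30 (274 and 282 against 255 and 229) did not pass the test.

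Several interferon-gamma-responsive members were highest in Mi2 replicate 2. Gbp2 was at 89.3 and 75.5 in WT, 159 in Mi2 replicate 1 and 643 in replicate 2 (log2 change 1.95 ± 0.578, adjusted p = 0.0442), and the change was 0.95 without replicate 2 and 2.95 without replicate 1. Gbp7 was at 44.7 and 43.6, then 13.3 and 110, Irgm1 at 84.4 and 82.8 and 74.3 and 217, Irgm2 at 94.3 and 98.7 and 29.2 and 236, and Ifi47 at 3.97 and 2.90 and 2.65 and 31.3, in the same order. None of these 4 passed the test, and in each the WT values lay between the 2 Mi2 libraries. The chemokine genes Cxcl9 (8.93 and 5.08 against 53.1 and 425) and Cxcl10 (14.9 and 7.26 against 33.2 and 147) were also highest in Mi2 replicate 2, with both Mi2 libraries above WT, and rose, as did 5 others of the 15 interferon-gamma response genes tested. Of all genes tested, 15.1% rose. Cxcl9 was under 10 in both WT libraries and passed the filter only through Mi2, so its call supports nothing. The gene listed as Gbp1 fell from 94.3 and 25.4 to 1.33 and 9.54 (log2 change -3.34 ± 0.890), a call that ended without WT replicate 1 (log2 change -2.42, adjusted p = 0.260) and without Mi2 replicate 1 (-2.25, 0.0948), with values of -4.27 and -4.43 without WT replicate 2 and Mi2 replicate 2. The sum of 9 markers of Langerhans and dendritic cells was 563 and 593, then 2278 and 2411. Most of it was Epcam and Cd74, which keratinocytes can also express. Mfge8 had the largest log2 change of the list's tested genes (4.89), from 20.8 and 21.1 to 756 and 560. Cd207, which defines Langerhans cells, was at 14.9 and 1.45 against 3.98 and 14.98. The part of such cells in these changes was not tested.

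Of the 17 epidermal calls, those of Ifitm3, Irf4, Oas1f and Oasl1 held in every alternative that tested them. Oasl1 was not tested without Mi2 replicate 1. It passed the filter only through Mi2, so that its call held supports nothing. Without WT replicate 1 the calls of Irf7, Ifitm1, Ifitm2, Oas3, Ifit1, Isg15, Irf3, Irf1, Irf5, Isg20l2, Gbp1 and Gbp2 ended (adjusted p from 0.0534 to 0.260), and without WT replicate 2 those of Usp18 and the same genes except Irf7 and Gbp1 (0.0520 to 0.197), with 2 and 3 members left higher and 3 lower each time.

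Of 32 members tested in both tables, 7 were called in opposite directions in Mi2 keratinocytes and in TSLPR WT Mi2 Tregs (21.9%), where 258 of 10112 genes tested in both were (2.55%). Another 3 members were called in the same direction (9.38%, beside 7.73% of all genes). Gbp2, Ifit1, Irf7, Isg15, Oas3 and Oasl1 were higher in Mi2 epidermis and lower in TSLPR WT Mi2 Tregs, and Irf4 was lower in the first and higher in the second. Ifit1, Isg15, Oas3 and Oasl1 are among those that passed the epidermal filter only through Mi2. The 21.9% therefore rests for the most part on epidermal calls that support nothing. Ifitm2 was higher in both, and Irf3 and Usp18 were lower in both. The 2 comparisons share no library, but the tables were normalized separately and the difference between them was not tested.

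**Figure D4:**
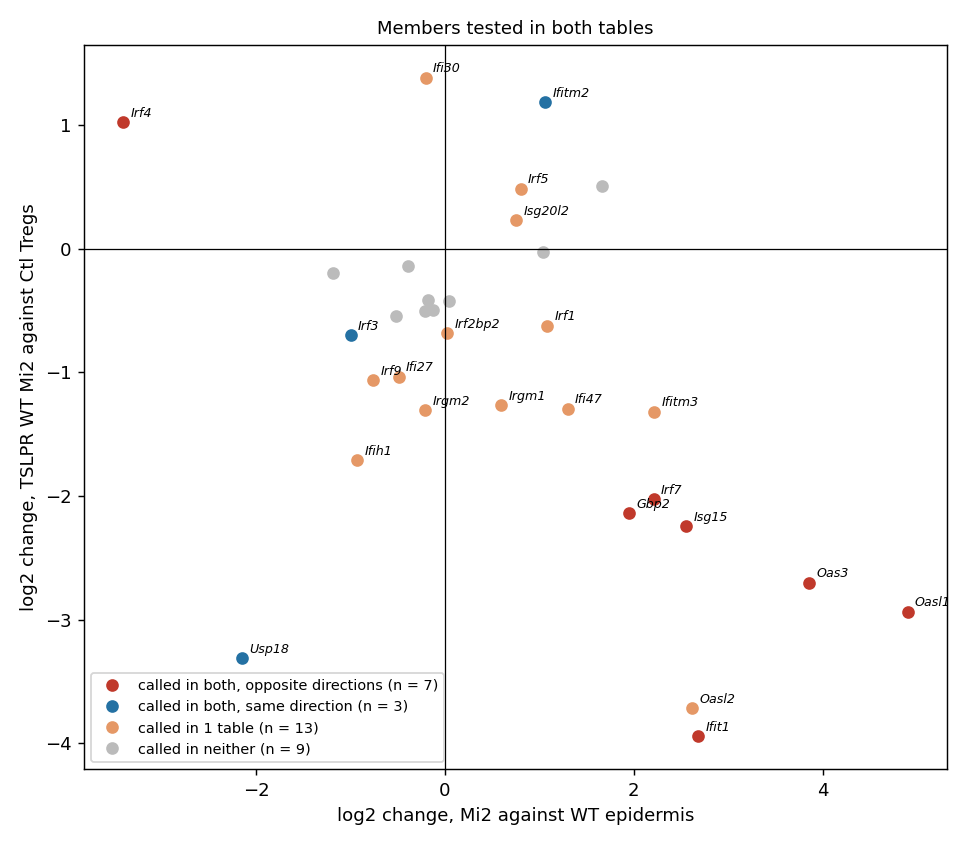
Log2 change of each of the 32 members tested in both tables, with Mi2 against WT epidermis on the horizontal axis and TSLPR WT Mi2 against Ctl Tregs on the vertical axis; colours show in which tables a member was called, and names are given for members called in at least 1. The 6 members called higher in epidermis and lower in Tregs lie at the lower right, Irf4 at the upper left, and Usp18 and Irf3 at the lower left.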

How the data were processed

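RNA sequencing gave 9 libraries of sorted mouse cells, 4 of epidermal keratinocytes and 5 of Tregs. The deposited signal of both tables is a normalized read count per gene or transcript. Per the submitters' processing notes, bcl2fastq 1.8.3, STAR, DESeq2 and the builds mm9 and mm10 were used, with no role given for each build. Per the file headers, HOMER (exon reads, mm9 transcripts) and DESeq2 produced the Treg table that the authors deposited; the command lists 7 libraries and the table holds 5, whose totals are equal. The sources used here name neither the counter of the epidermal table nor a strand setting, and the labels list an unstranded or a stranded kit without saying which served which sample. Values above 0 were whole multiples of 1 step per library (100% within 0.05 reads), from which reads were recovered.

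Members and lists were chosen with earlier results of these data known. The transcript with the highest mean stood for each Treg symbol. The design put counts first; since the tables hold normalized values, limma 3.58.1 (R 4.3.3) with an intensity trend was run on log2(value + 1), for genes with a mean of at least 10 over the fitted libraries, so a fold change understates that of low genes. A call is a Benjamini-Hochberg adjusted p under 0.05 over all genes tested, two-sided. Epidermis was fitted with 4 libraries and Tregs with all 5. The script was tested on simulated data. edgeR 4.0.16 and DESeq2 1.42.0 on recovered reads, other pseudocounts, filters and scalings, summed transcripts and leaving out each library were alternatives. Members named are those called, up to 25 by smallest p per comparison, and the highest of each family; others were chosen after their values were seen. Figures were drawn with matplotlib. Some genes enter the counts and are not reported singly here.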

Additional observations from a re-analysis of the deposited data

Results flagged for a closer look

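Of the 32 members tested in both tables, 7 (21.9%, beside 2.55% of the 10112 genes tested in both) were called in both Mi2 keratinocytes and TSLPR WT Mi2 Tregs, with both libraries of a group moving one way in one cell type and the opposite way in the other. The difference between the cell types was not tested, since the tables were normalized separately. The log2 change in Mi2 against WT epidermis was -3.40 for Irf4, where that in Tregs was 1.02. The same pair of values was 2.21 against -2.03 for Irf7, 1.95 against -2.14 for Gbp2, 3.86 against -2.70 for Oas3, 2.68 against -3.94 for Ifit1, 2.56 against -2.25 for Isg15 and 4.90 against -2.94 for Oasl1. Oasl1 and Oas3 had 0 reads and 1 read in WT epidermis, so their fitted epidermal changes depend on the pseudocount. These genes, Ifit1 and Isg15 had WT means under 10 and passed the epidermal filter only through Mi2, so their epidermal calls support nothing. The 21.9% counts them and so rests for the most part on such calls. The epidermal calls of Irf4 and Oasl1 held with every alternative that tested them, and that of Irf7 ended without WT replicate 1. Those of Gbp2, Oas3, Ifit1 and Isg15 ended without either WT library. The calls of Gbp2 and Isg15 also ended with limma and no filter. That of Gbp2 ended too without the intensity trend and with the scalings that left out mitochondrial genes or the 50 most abundant genes.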

How the results depend on the processing

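No called member changed direction in any alternative. In epidermis, members called higher and lower numbered 6 and 8 with mitochondrial genes left out of the scaling, 18 and 9 with edgeR and no filter, an alternative added after seeing the data, and 8 and 4 with limma without trend. Leaving out 1 library gave 2 to 14 higher and 3 to 10 lower members, and 1113 to 5815 genes called. In Tregs, limma with no filter called 0 members and 0 genes in each of the 3 comparisons, where 42, 9 and 10 of 61 members and 5043, 1741 and 1942 of 16831 genes had an unadjusted p under 0.05. For TSLPR WT Mi2 against Ctl, limma without trend called 3 higher and 26 lower, and leaving out 1 library gave 2 to 3 higher and 30 to 33 lower. For TSLPR-negative against TSLPR WT Mi2, limma without trend called 0 members and 3 genes, DESeq2 236 genes, and edgeR with no filter 17 members higher and 525 genes; leaving out 1 library gave 8 to 18 members higher and 159 to 453 genes. For TSLPR-negative against Ctl, limma without trend called 0 members and 1 gene, DESeq2 4 members lower, edgeR with no filter 1 higher, 8 lower and 811 genes, and summed transcripts 1 lower; leaving out 1 library gave 0 to 1 higher, 1 to 7 lower and 372 to 687 genes. The cause of these shifts was not tested. With the replicate number as a block, 13 epidermal members were higher and 6 lower, and 4 and 40 in TSLPR WT Mi2 against Ctl Tregs. Same-numbered libraries share only a number (correlation of deviations across genes 0.12 and 0.09, 2 pairs each). No block could be fitted for the TSLPR-negative comparisons, which have 1 library on one side. With 2 libraries per group at most, small changes could not be separated from the spread.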
